A study of Mus musculus with 6 samples.

Results

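The 10 genes Acta2, Actg2, Myh11, Myl9, Tagln, Cnn1, Lmod1, Smtn, Des and Synm, which encode parts of the smooth muscle contractile apparatus, were followed in RNA sequencing of mouse intestine. They were chosen by function, with earlier results of these data known, and looked up by symbol, and all 10 were found among the 54446 gene rows of the deposited count table and passed the low-count filter, which 19176 genes passed. The 3 control samples came from wild-type mouse pups that stayed with their dams, without hypoxia or cold. The 3 samples labelled NEC, for necrotizing enterocolitis, came from wild-type pups gavaged with 40 µl of 33% Esbilac formula at 4 h intervals, which every 12 h were also put in 99.9% nitrogen for 100 s and then at 4 °C for 10 min. All pups were killed at 96 h. The sources used here do not give the intestinal segment, the age in days or whether a sample is 1 animal. P-values below therefore reflect how much these 6 samples vary, and part of that variation may be technical.

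Smooth muscle forms the circular and longitudinal coats of the gut wall, the thin muscle sheet under the mucosa and the walls of blood vessels. Its cells shorten when myosin heavy chains, switched on by phosphorylation of their regulatory light chain, pull on actin filaments that are anchored in dense bodies and linked through desmin-type intermediate filaments. Many of its genes are driven by serum response factor (SRF) and its partner myocardin through a DNA element called the CArG box. In whole intestine these transcripts are diluted by those of epithelium and other cells, so fewer muscle cells and less RNA per muscle cell cannot be told apart.

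The results turn on whether closely related contractile genes can be counted apart, so a stretch of the vascular-type actin gene Acta2 (chromosome 19, 34241090 to 34255590, minus strand) is set beside that of the visceral actin gene Actg2 (chromosome 6, 83512905 to 83536265, minus strand; GENCODE M21 on mm10). Capitals mark the bases that differ within coding bases 436 to 495 of Acta2 and 433 to 492 of Actg2. Of the gap-free 60-base stretches taken codon by codon along the alignment, that stretch had the most differences.
Acta2: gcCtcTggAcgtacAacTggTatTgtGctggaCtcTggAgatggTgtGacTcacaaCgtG
Actg2: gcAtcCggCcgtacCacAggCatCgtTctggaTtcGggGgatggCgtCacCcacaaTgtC
Over the whole coding sequence the 2 genes were 84.2% identical, and the longest run of identical bases in their transcripts was 29 bases, against reads of 150 bases. The longest run that Acta2 shared with the nonmuscle actins was 47 bases for Actb and 56 bases for Actg1. How reads that match several genes were counted is not stated in the labels.

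CArG boxes are shown because they are the element through which SRF is known to act on this gene class. The motif was searched in the 250 bases upstream of the RefSeq starts (GRCm38.p6), which were at hand for 7 of the 10 genes. Tagln, Actg2 and Myh11 were not searched. The form with all 6 central bases A or T was found in 1 of the 7 (Myl9), and in 1.47% of the 32851 promoters searched. A form with 1 central base free was found in 3 of the 7, against 8.59% of all promoters. Cnn1, Des, Lmod1 and Smtn had neither form in this window. Each box is given below in capitals with 10 flanking bases on either side, on the strand of its gene; the motif reads the same class of bases on both strands, and the second form includes the first.
Acta2, chr19:34255438-34255467, minus strand: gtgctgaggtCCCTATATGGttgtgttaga
Acta2, chr19:34255388-34255417, minus strand: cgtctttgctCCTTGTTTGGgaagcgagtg
Myl9, chr2:156775293-156775322, plus strand: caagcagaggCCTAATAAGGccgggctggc
Myl9, chr2:156775355-156775384, plus strand: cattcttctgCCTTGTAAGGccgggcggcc
Synm, chr7:67759962-67759991, minus strand: caacggggagCCTCATAAGGtgtcccagat
These matches describe letters in a window and are not measured binding sites.

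Total counts per library ran from 69441184 to 106304239, and the member with the lowest count in any library was Lmod1, with 439. The sample codes in the labels begin with AG181017 in 4 libraries (control 1 and 2, NEC 2 and 3) and with AG181028 in the remaining pair (control 3 and NEC 1); what the codes stand for is not stated. Levels are CPM, each count divided by its library's TMM-corrected total and put on a common scale. Xist stood at 179 CPM in control 1 and 344 CPM in control 2 and at 1.17 CPM or below elsewhere, while the Y-linked Ddx3y stood at 19.8 CPM in control 1 and 1.29 CPM in control 2, so control 1 held both kinds of transcript. Ddx3y stood at 30.9 CPM in control 3 and at 25.6 to 44.8 CPM in NEC. All 3 NEC libraries thus had the Y-linked transcript with little Xist, as control 3 did, while control 1 and 2 did not, so the groups differed in these sex-linked transcripts. The part of this in the results was not tested. Epithelial markers such as Epcam, Vil1 and Lgals4 summed to between 8932 and 12460 CPM over the 6 libraries, and none of those 10 markers was at 0 in every library. Without control 1 no contractile gene passed the test described next, but neither did any of all genes, so that count says nothing about stability.

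None of the 10 contractile genes passed the test of NEC against control. The test was edgeR's quasi-likelihood test with Benjamini-Hochberg adjustment over all genes at 0.05, which called 0.704% of the 19176 genes tested, and the smallest adjusted p among the 10 was 0.450 (Smtn). At an unadjusted p below 0.05 the count was again 0 of 10, against 15.6% of all genes, and DESeq2 and limma-voom also called 0 of 10, where they called 5.86% and 0.787% of all genes. Of the 10, 5 had a positive and 5 a negative log2 fold change, with a median of -0.043 beside 0.026 over all genes tested; with libraries scaled by total counts only the medians were 0.095 and 0.098. On counts simulated for this comparison the procedure called 6.12% of genes simulated with a true log2 difference of 1 and 31.9% of those with 2. The changed genes were drawn at random from all that passed the filter, so these are not detection rates for the 10 members. A gene that misses the threshold here is therefore not shown to be unchanged.

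**Figure D1:**
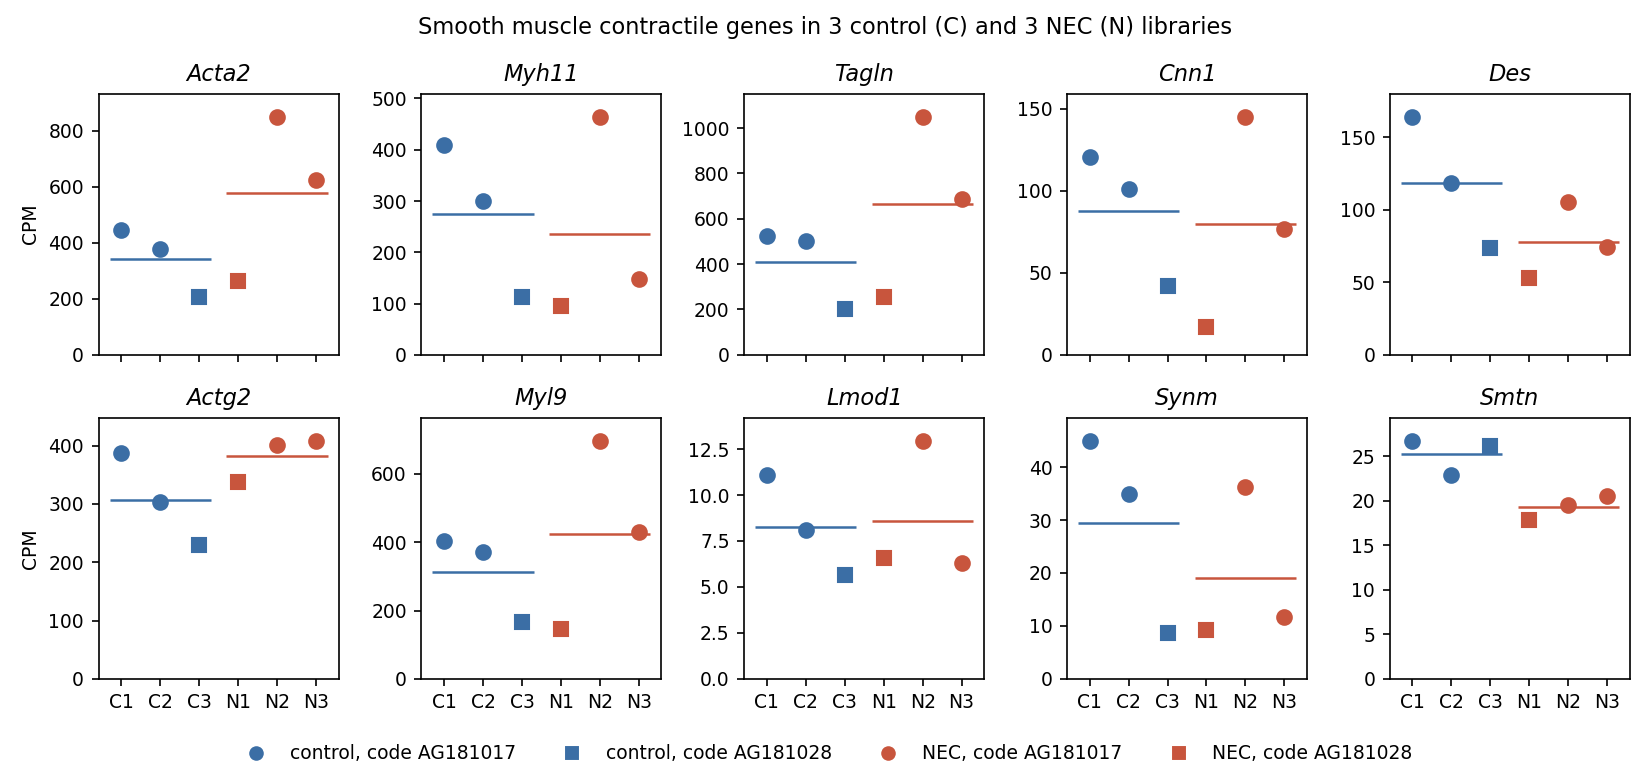
Level of each contractile gene in CPM (vertical axes from 0) in control libraries C1 to C3 (blue) and NEC libraries N1 to N3 (red); horizontal lines are group means and squares are libraries with a code starting AG181028. In 7 of the 10 genes both squares lie below all 4 circles, and Smtn alone has groups that do not overlap.

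Compared per length, as CPM per kilobase of exon, Myl9 was the most abundant in control libraries (270 ± 111, SD, n = 3). It was followed by Tagln (206 ± 90.3), Actg2 (197 ± 50.5) and Acta2 (156 ± 56.7), and none of these 4 was separated from its neighbour by more than 1 SD. A clear step led down to Myh11 (36.1 ± 19.7), Cnn1 (32.1 ± 14.9) and Des (31.6 ± 12.0), which again lay within 1 SD of each other. Smtn (5.76 ± 0.463), Synm (3.71 ± 2.36) and Lmod1 (2.10 ± 0.690 CPM per kilobase) were lowest. The order in NEC was the same except that Acta2 (263 ± 135) stood ahead of Actg2 (245 ± 24.7 CPM per kilobase).

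Actins form the thin filament. Acta2, the isoform of vascular muscle that gut muscle and myofibroblasts also make, had 447, 378 and 205 CPM in control 1 to 3 and 262, 847 and 623 CPM in NEC 1 to 3. NEC 2 and 3 were above every control, while NEC 1 lay between control 3 and control 2. The log2 fold change was 0.75 (SE 0.47, 95% interval -0.34 to 1.84, edgeR adjusted p = 0.4997). Actg2, the main actin of enteric smooth muscle, had 387, 304 and 230 CPM in control and 338, 401 and 407 CPM in NEC. It had one of the narrower spreads of the 10, with the NEC libraries within 1.21-fold of each other, and the groups overlapped through control 1 and NEC 1. Its log2 fold change was 0.32 (SE 0.26, 95% interval -0.30 to 0.93, edgeR adjusted p = 0.628), an interval from 0.815-fold to 1.90-fold.

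Myosin supplies the motor. Myh11, the smooth muscle myosin heavy chain, had 409, 300 and 113 CPM in control and 95.6, 463 and 149 CPM in NEC. The range was 3.63-fold among controls and 4.85-fold among NEC libraries, so that each group held both high and low libraries. The log2 fold change was -0.22 (SE 0.66, 95% interval -1.74 to 1.31, edgeR adjusted p = 0.922), and it was positive without control 1 (0.19), NEC 1 (0.16) or NEC 3 (0.03). Myl9, the regulatory light chain whose phosphorylation starts contraction, had 403, 372 and 165 CPM in control and 145, 695 and 429 CPM in NEC. NEC 1 was the lowest and NEC 2 the highest of all 6 libraries. Its log2 fold change of 0.43 (SE 0.57, edgeR adjusted p = 0.776) was -0.15 without NEC 2. Myl9 coding sequence was 85.6% identical to the nonmuscle Myl12a and 86.3% to Myl12b, with shared runs of up to 35 bases.

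The next members bind or build the actin filament. Tagln, which encodes the actin-bundling protein transgelin (SM22), had 523, 502 and 202 CPM in control and 254, 1048 and 689 CPM in NEC. As for Acta2, NEC 2 and 3 lay above all controls and NEC 1 did not (log2 fold change 0.70, SE 0.55, 95% interval -0.59 to 1.98, edgeR adjusted p = 0.608). Its exons overlap those of Pcsk7 on the opposite strand, which had 17.6 to 45.9 CPM, and those of Gm48529, with 6.60 to 36.3 CPM. Since no strand setting is stated, reads in the shared bases cannot be assigned to one strand.

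Cnn1, calponin, which damps the actomyosin ATPase, had 120, 101 and 42.2 CPM in control and 17.2, 145 and 76.8 CPM in NEC. The 8.42-fold range within the NEC group was the widest seen in either group for any of the 10 genes. The log2 fold change was -0.14 (SE 0.70, 95% interval -1.76 to 1.47, edgeR adjusted p = 0.954); it was 0.15 without control 1, 0.33 without NEC 1 and 0.01 when libraries were scaled by total counts only. Lmod1, the filament nucleator leiomodin, had 11.1, 8.09 and 5.66 CPM in control and 6.60, 12.9 and 6.31 CPM in NEC (log2 fold change 0.06, with SE 0.40 and an adjusted p = 0.973 by edgeR). Its value was -0.16 without control 3, -0.36 without NEC 2 and -0.02 in the AG181017 libraries alone.

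Smtn, smoothelin, a filament-associated protein of contractile muscle, was the steadiest member, at 26.7, 22.9 and 26.1 CPM in control and 17.8, 19.5 and 20.5 CPM in NEC. All 3 NEC values were below all 3 control values, and the ranges were 1.16-fold and 1.15-fold within groups. Groups did not overlap in 1 of the 10 members and in 22.4% of all genes tested. The log2 fold change was -0.39 (SE 0.22, 95% interval -0.90 to 0.12, edgeR adjusted p = 0.450), with values from -0.46 to -0.34 when any 1 library was left out. Smtn exons overlap those of Gm11946 and Gm11947 on the opposite strand, and reads in the shared bases cannot be assigned to a strand.

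The remaining pair encode intermediate filaments. Des, the muscle desmin gene, had 164, 119 and 73.5 CPM in control and 52.6, 105 and 74.5 CPM in NEC, with the groups overlapping through control 3. Its log2 fold change was -0.62 (SE 0.37, 95% interval -1.47 to 0.24, edgeR adjusted p = 0.478). Synm, synemin, which joins desmin filaments to attachment sites, had 44.9, 34.9 and 8.60 CPM in control and 9.19, 36.3 and 11.7 CPM in NEC. Control 3, NEC 1 and NEC 3 formed a low set and the other 3 libraries a high one, and the log2 fold change was -0.63 (SE 0.69, edgeR adjusted p = 0.729). Without NEC 2 it was -1.503, and without control 1 it was -0.19, and neither passed the test. Synm overlaps exons of Ttc23 (6.24 to 19.6 CPM) and Gm45102 on the opposite strand, and Des overlaps those of Gm15179.

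**Figure D2:**
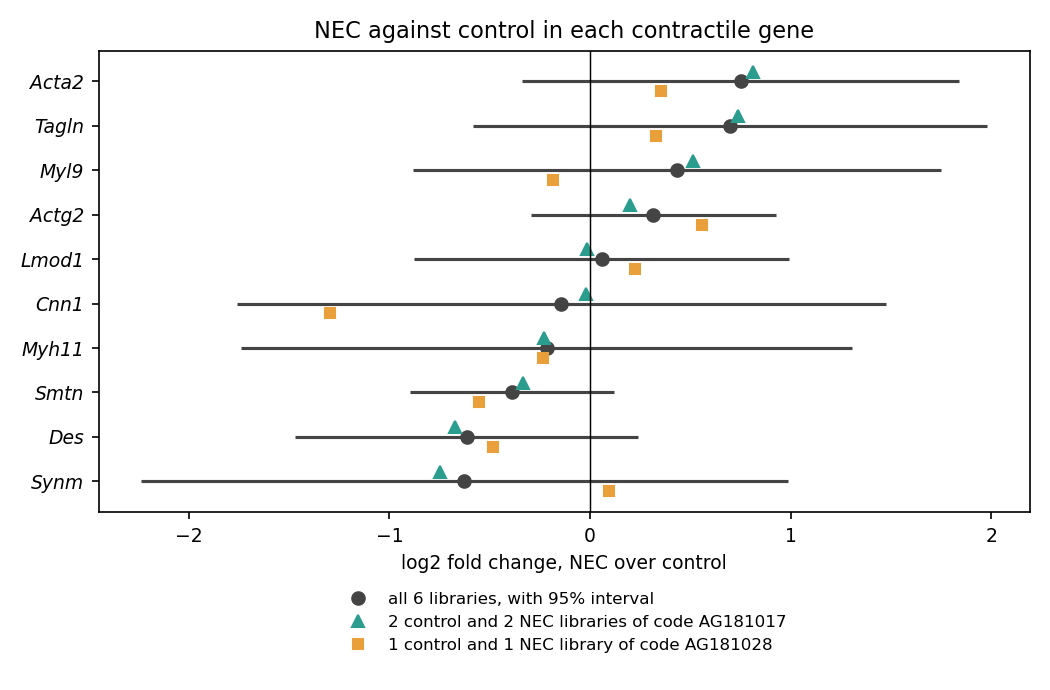
Log2 fold change of NEC over control (horizontal axis) for each contractile gene: circles with 95% intervals are from all 6 libraries, triangles from the 4 AG181017 libraries and squares from the single pair of AG181028 libraries. All 10 intervals include 0, from Acta2 at 0.75 to Synm at -0.63.

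Summed over the 10 genes, control 1 to 3 held 2535, 2142 and 1071 CPM and NEC 1 to 3 held 1198, 3773 and 2486 CPM. The lowest sums were thus 1 library of each group, control 3 and NEC 1, and these were the AG181028 libraries. In 7 of the 10 genes (all but Actg2, Lmod1 and Smtn) both lay below all 4 AG181017 libraries, an order found in 12.4% of all genes tested. NEC 2 was the highest library for 6 of the 10 genes, against 18.9% of all genes. With the code as a term in the fit the standard errors shrank, from 0.47 to 0.24 for Acta2, from 0.55 to 0.25 for Tagln and from 0.37 to 0.23 for Des. Their log2 fold changes were then 0.68, 0.62 and -0.60. Unadjusted p fell below 0.05 for these 3 members, against 20.5% of all genes in that fit, and 0 of 10 passed after adjustment, against 1.27% of all genes (edgeR adjusted p = 0.180 for Acta2, 0.211 for Des and 0.226 for Tagln).

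Within the AG181017 libraries alone, 2 against 2, Acta2 had a log2 fold change of 0.81 (SE 0.29), Tagln of 0.74 (SE 0.31) and Des of -0.67 (SE 0.30), with edgeR adjusted p of 0.301, 0.365 and 0.391. None of the 10 passed in those libraries, where 0.129% of all genes did and 1 member, Acta2, had an unadjusted p below 0.05, as did 14.2% of all genes. The pair of AG181028 libraries gives no test; its log2 ratios were 0.35 for Acta2, 0.33 for Tagln and -0.48 for Des, of the same sign. For 3 other members the signs were opposite, at 0.52 within AG181017 and -0.18 in the AG181028 pair for Myl9, -0.75 and 0.10 for Synm, and -0.015 and 0.22 for Lmod1. Cnn1 differed most between the codes, at -0.02 within AG181017 and -1.30 in the AG181028 pair, a difference that was not tested.

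Correlations between members across libraries were mostly positive. Over the 6 libraries, 41 of the 45 member pairs had a positive Pearson correlation of log2 CPM, with a median of 0.72. These are descriptions over 6 points that share library depth, tissue make-up and group. No share over all gene pairs was at hand to set beside them, so the count is not read as a trait of the members. Acta2, Tagln and Myl9 were closest to one another (0.99 for Acta2 with Tagln, 0.98 for Tagln with Myl9, 0.94 for Acta2 with Myl9), and Myh11 paired with Synm (0.97). Smtn stood apart, with a median correlation of 0.01 with the others, and Actg2 had 0.49.

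Ratios within a library do not depend on its scaling, and 3 were tested between the groups. Actg2 to Acta2, visceral against vascular-type actin, was 0.867, 0.804 and 1.12 in control and 1.29, 0.473 and 0.653 in NEC. Myh11 to the nonmuscle myosin gene Myh10 was 45.6, 26.8 and 17.2 in control and 14.6, 28.03 and 27.4 in NEC. Des to the mesenchymal filament gene Vim was 1.56, 1.37 and 1.23 in control and 1.004, 0.745 and 1.79 in NEC. The differences in log2 ratio, NEC minus control, were -0.32, -0.30 and -0.33, smaller than the larger of the SDs of their groups. Two-sided exact permutation tests gave p = 0.5, 0.6 and 0.5, each 0.6 after adjustment over the 3 ratios, where the smallest p that 3 against 3 allow is 0.1.

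Of the 45 ratios among members, 13 had groups that did not overlap, or 28.9%, against 25.2% of all pairs of genes with a mean of at least 5 CPM. That share is near the background. The largest of them is given as a description and was chosen after its values were seen: Acta2 to Des was 2.73, 3.19 and 2.79 in control and 4.98, 8.07 and 8.37 in NEC. Expressed as shares of the summed CPM of the 10 genes, Acta2 made up 17.6%, 17.7% and 19.1% in control and 21.9%, 22.5% and 25.1% in NEC. The share of Des was 6.45%, 5.54% and 6.86% in control and 4.39%, 2.78% and 2.996% in NEC, and that of Cnn1 was 3.94% to 4.75% in control and 1.44% to 3.84% in NEC. Groups did not overlap for these 3 of the 10 shares, against 10.6% of all genes set over the same sum, which holds the members themselves, and the 25.2% of gene pairs above. Shares that sum to a whole are not independent, and nothing is read from this count. In percentage points the share of Actg2 spread widest, from 10.62% in NEC 2 to 28.2% in NEC 1.

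**Figure D3:**
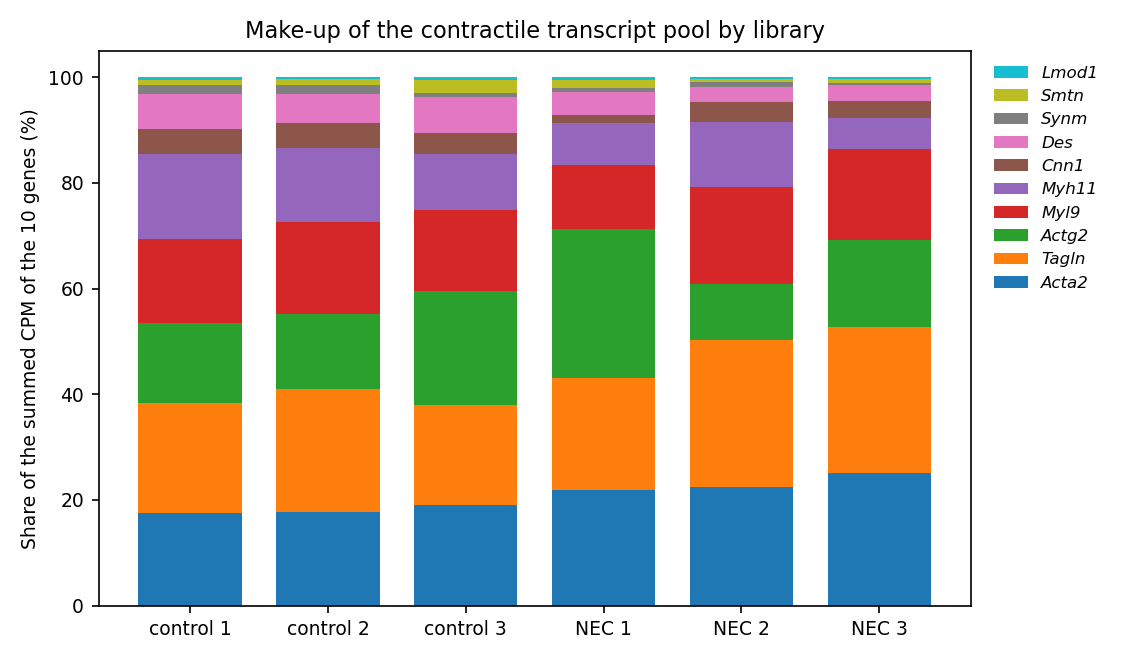
Share of the summed CPM of the 10 genes held by each gene (stacked, vertical axis in percent) in each library. The Acta2 share at the base runs from 17.6% to 19.1% in control and from 21.9% to 25.1% in NEC, and the Des share is smaller in each NEC library than in each control.

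Among 25 further genes of the contractile apparatus, 0 passed edgeR's test or limma-voom, 4 had an unadjusted p below 0.05, or 16.0% against 15.6% of all genes, and DESeq2 called 1, Csrp1, where it called 5.86% of all genes. In this list 12 genes had positive and 13 negative log2 fold changes, and the median was -0.015 (0.084 with total counts only, and -0.39 to 0.20 with 1 library left out). Csrp1, a LIM protein gene of smooth muscle, had 123, 91.9 and 76.9 CPM in control and 173, 276 and 236 CPM in NEC. All NEC values were above all controls, and its log2 fold change was 1.23, with an SE of 0.28 and an adjusted p of 0.102 by edgeR. Ldb3, a Z-disc protein gene, lay on the other side, at 64.7, 63.1 and 53.3 CPM in control and 20.5, 41.3 and 19.4 CPM in NEC, again without overlap (log2 fold change -1.16, with an SE of 0.33). Ppp1r14a, which encodes an inhibitor of myosin phosphatase, had 8.54, 4.96 and 5.72 CPM in control and 7.13, 22.7 and 14.5 CPM in NEC, and its groups overlapped through NEC 1 (log2 fold change 1.21, SE 0.45).

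Transcription regulators of smooth muscle numbered 13, of which 12 were tested. None passed edgeR's test or limma-voom. At an unadjusted p below 0.05 by edgeR there was 1, or 8.33% of those tested against 15.6% of all genes. DESeq2 called that gene, Klf4, where it called 5.86% of all genes. The median log2 fold change was 0.13, but 0.42 without control 3, -0.014 without control 2 and -0.032 without NEC 1. Klf4, known as a repressor of contractile genes in muscle and also made by gut epithelium, had 119, 116 and 134 CPM in control and 438, 174 and 337 CPM in NEC. Its log2 fold change was 1.37, with an SE of 0.35 and an adjusted p of 0.124 by edgeR. The LIM protein gene Csrp2 had a log2 fold change of 0.86 (SE 0.41) and the SRF coactivator gene Mrtfa one of 0.62 (SE 0.39), both with overlapping groups.

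Contraction signalling and ion handling gave a like count over 20 genes, with 0 called by edgeR or limma-voom. The median log2 fold change was -0.18, which ran from -0.59 to 0.048 with 1 library left out. At an unadjusted p below 0.05 by edgeR there was 1 gene, or 5.0% against 15.6% of all genes. That gene, Itpr1, was also the one DESeq2 called, where it called 5.86% of all genes. Itpr1, a calcium release channel gene, had 33.3, 28.2 and 38.7 CPM in control and 13.5, 21.0 and 11.6 CPM in NEC, with no overlap. Its log2 fold change was -1.12, with an SE of 0.30 and an adjusted p of 0.135 by edgeR. The kinase gene Prkg1, which acts in relaxation by nitric oxide, had a log2 fold change of 1.89 (SE 0.85) that rested on NEC 2, at 5.14 CPM against 0.422 to 0.805 CPM in the other 5 libraries. The oxytocin receptor gene Oxtr was at 0.532 CPM or below throughout (log2 fold change -1.22, SE 0.69).

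Nonmuscle actin and myosin genes are the counterparts that most cells express. None of 9 passed edgeR's test, DESeq2 or limma-voom. By edgeR 2 had an unadjusted p below 0.05, or 22.2% against 15.6% of all genes. The median log2 fold change was 0.38 with 8 of 9 positive. One symbol, Myl12b, matched 2 gene identifiers and was left out. Cytoplasmic Actg1 had 590, 795 and 446 CPM in control and 1039, 967 and 1016 CPM in NEC. Its groups did not overlap, and its log2 fold change was 0.72, with an SE of 0.28 and an adjusted p of 0.271 by edgeR. The calponin gene Cnn3 had a log2 fold change of 1.42 (SE 0.50) and the tropomyosin gene Tpm3 one of 0.38 (SE 0.25). Summed, the 9 genes ran from 3255 to 3902 CPM in control and from 4001 to 4566 CPM in NEC. No background share for such sums was at hand, so nothing is read from the gap. NEC 1 had the highest of these sums, at 4566 CPM, where it was low for the smooth muscle genes. Control 3, at 3358 CPM, was low here too, though above control 2, at 3255 CPM.

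Markers of neighbouring cell types were set beside these values. No gene of the 7 marker lists passed edgeR's test or limma-voom. By edgeR 9 of 69 tested had an unadjusted p below 0.05, or 13.0% against 15.6% of all genes. By list that share ran from 0% for striated muscle and fibroblast markers to 37.5% (3 of 8) for interstitial cell of Cajal and Pdgfra cell markers. For mesothelial markers it was 33.3% (2 of 6). DESeq2, which called 5.86% of all genes, called 4 of 70 (Krt19, S100b, Kcnj8 and the low-count Myh8). Fibroblast markers summed to 889 to 1171 CPM in control and 578 to 2349 CPM in NEC, with NEC 2 the highest and NEC 1 the lowest. Of these 10 genes the proteoglycan gene Dcn had 54.3, 88.8 and 40.6 CPM in control and 33.2, 388 and 96.2 CPM in NEC (log2 fold change 1.495, with an SE of 0.80). The matrix genes Fbln1 and Fn1 had log2 fold changes of -0.88 (SE 0.44) and -0.69 (SE 0.50), and the median of the list was 0.19. That median was -0.763 without NEC 2, -0.092 with limma-voom and -0.075 with the replicate number as a block. Mesothelial markers, of the sheet that covers the outer muscle coat, summed to 4.74 to 21.1 CPM in control and to 11.9, 91.7 and 18.3 CPM in NEC 1 to 3. All 6 had positive log2 fold changes with a median of 1.58, which was -0.76 without NEC 2. Those of Upk1b, Msln and Gpm6a were 1.80 (SE 0.67), 1.88 (SE 0.76) and 1.36 (SE 0.88). The library with the most contractile RNA thus also had the most fibroblast and mesothelial RNA. Control 3 and NEC 1, lowest in the contractile sum, were also the lowest in the summed mesothelial (4.74 and 11.9 CPM), striated muscle (24.3 and 16.9 CPM) and enteric neuron and glia markers (129 and 113 CPM). The last of these was close, with NEC 3 at 130.7 CPM. The striated muscle order rested on 1 gene, Tnnt2, with NEC 3 next lowest in that sum at 30.5 CPM. Tnnt2 separated control 3 (4.54 CPM) from NEC 3 (11.6 CPM) by more than their striated sums differed. It is thus not read as a low shared by striated muscle markers as a class. The order with control 3 and NEC 1 lowest was not found in the sums of fibroblast, pericyte and endothelial, interstitial cell of Cajal and Pdgfra cell, or epithelial markers. The part of these cells in the contractile values was not tested.

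Striated muscle markers summed to 24.3 to 50.8 CPM in control and 16.9 to 60.8 CPM in NEC. The most abundant were Tnnt2, at 4.54 to 35.0 CPM, Ckm, at 2.35 to 11.7 CPM, and Tnnt1, at 4.92 to 8.03 CPM. The sarcomeric actin and myosin genes were lower, with Acta1 at 0.129 to 1.61 CPM, Actc1 at 0.42 CPM or below, Myh7 at 0.147 to 2.17 CPM, Myh8 at 0.40 CPM or below, Myh3 at 0.587 CPM or below and Myh6 at 0.0734 CPM or below. Markers of interstitial cells of Cajal and Pdgfra cells, which pace the muscle and relay nerve signals to it, summed to 132 to 144 CPM in control and 107 to 175 CPM in NEC. The receptor gene Pdgfra had a log2 fold change of 0.74 (SE 0.30), the purine receptor gene P2ry1 one of -0.55 (SE 0.22) and the potassium channel gene Kcnn3 one of -1.22 (SE 0.50). Enteric neuron and glia markers summed to 129 to 186 CPM in control and 113 to 170 CPM in NEC. Log2 fold changes were positive for 7 and negative for 6 of these 13 genes. Their median was 0.058, and -0.53 without NEC 2. The glial gene S100b was lower in all 3 NEC libraries (0.231 to 1.84 CPM) than in the controls (3.43 to 7.39 CPM), with a log2 fold change of -2.39 (SE 0.73) and an adjusted p of 0.182 by edgeR. The neuronal gene Uchl1 had a log2 fold change of 1.03 (SE 0.38).

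Pericyte and endothelial markers summed to 182 to 295 CPM in control and 172 to 260 CPM in NEC. Log2 fold changes were positive for 4 and negative for 6 of these 10 genes, with a median of -0.16. The vascular potassium channel gene Kcnj8 had 15.7, 12.0 and 9.97 CPM in control and 18.4, 28.2 and 33.3 CPM in NEC, with no overlap. Its log2 fold change was 1.09 (SE 0.31, adjusted p = 0.161 by edgeR), beside -0.56 (SE 0.35) for the pericyte gene Cspg4 and -0.75 (SE 0.52) for the endothelial gene Vwf. Among epithelial markers the keratin gene Krt19 had the largest log2 fold change, at 1.56 (SE 0.34, adjusted p = 0.0891 by edgeR), while Elf3 had -0.47 (SE 0.23) and Krt8 0.41 (SE 0.25). No marker of the 7 lists was at 0 in all 6 libraries.

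**Figure D4:**
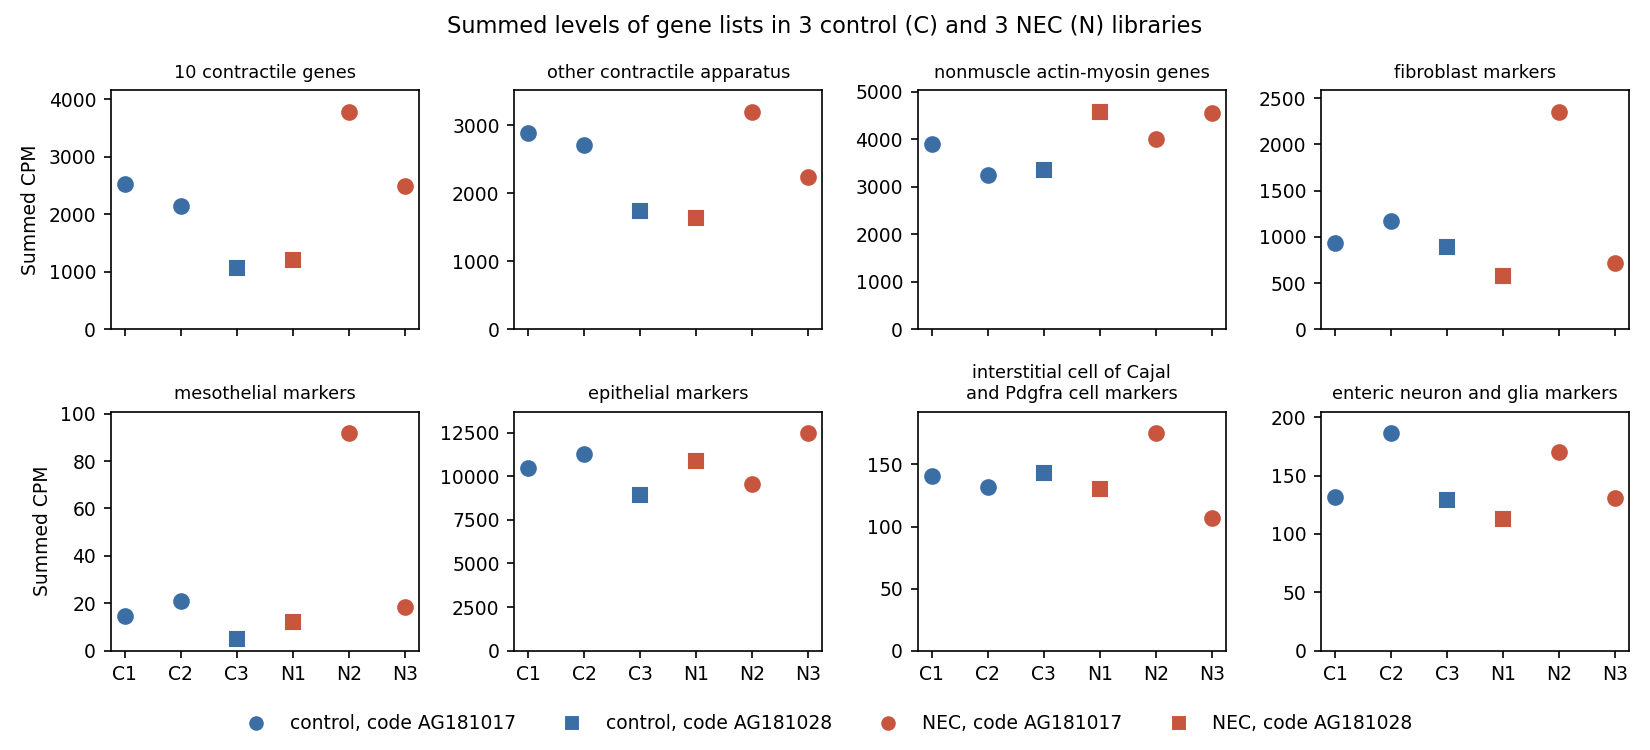
Summed CPM (vertical axes from 0) of the 10 contractile genes and of 7 other gene lists in control libraries C1 to C3 (blue) and NEC libraries N1 to N3 (red), with squares for codes starting AG181028. The 10 contractile genes and the other contractile genes are lowest in C3 and N1, as are the mesothelial and the enteric neuron and glia markers, and fibroblast and mesothelial sums are highest in N2 (2349 and 91.7 CPM). For neuron and glia markers C3 (129 CPM) is close to N3 (130.7 CPM).

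Among 10841 genes with a mean of at least 5 CPM, the 8 named genes outside the set whose log2 CPM followed the mean of the 10 members most closely over the 6 libraries had Pearson correlations from 0.982 to 0.995. They were Ube2v2, Cpe, Syt1, Sgcb, Tnnt2, Pirt, Cd52 and Fxyd6. Sgcb encodes a sarcoglycan of the muscle membrane, Tnnt2 a troponin and Syt1 a synaptic vesicle calcium sensor. Cpe, a prohormone-processing enzyme gene of neuroendocrine cells, had 92.4, 78.3 and 30.2 CPM in control and 32.3, 102 and 57.4 CPM in NEC. It shared the lows and the high of the contractile sum, which follows from how these genes were picked. Picked from 10841 genes over 6 libraries, such correlations show no link to the members. None of the 8 passed edgeR's test between groups, with log2 fold changes from -0.12 to 0.36.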

How the data were processed

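For each of the 6 samples the authors deposited whole-number counts per gene identifier, in a single table. Per the labels' protocols, TRIzol was used for RNA extraction and reads were 150 bp pairs; the submitters' processing notes name mm10. Aligner, counter, annotation and strand setting: not given in the sources used here. Of 54446 identifiers 54409 matched a symbol. The counts went through edgeR 4.0.16 (R 4.3.3): filterByExpr (minimum count 10), TMM scaling, robust quasi-likelihood fit of NEC against control, Benjamini-Hochberg adjustment over 19176 genes, called at 0.05. CPM are counts over TMM-scaled library sizes, and lengths are GENCODE M21 exon unions. DESeq2 1.42.0 and limma 3.58.1 (voom) were alternatives. The 10 members and the 11 other lists were chosen with earlier results of these data known. Named genes were the members, any called gene of a list or else its 3 smallest p, and the 8 genes most like the members; 1 gene so named is not reported here. The fit was tested on simulated counts. No 2 libraries agreed within sampling noise.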

Additional observations from a re-analysis of the deposited data

How the results depend on the processing

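The count of contractile genes called was 0 under each of 17 alternatives, and the smallest adjusted p ran from 0.180 to 0.697. Of 170 member values under these alternatives, 160 kept their direction; Acta2, Tagln, Actg2, Des, Synm and Smtn kept it throughout, but their sizes moved with 1 library left out: 0.35 (without NEC 2) to 1.097 for Acta2, 0.18 (without NEC 2) to 1.08 for Tagln, 0.14 (without control 3) to 0.52 for Actg2, -0.91 to -0.31 (without control 1) for Des, -1.503 to -0.19 for Synm and -0.46 to -0.34 for Smtn. Reversed values were 0.006 for Cnn1 with total counts only and -0.015 for Lmod1 in the 4 AG181017 libraries, and with 1 library left out values ran from -1.18 to 0.19 for Myh11, -0.93 to 0.33 for Cnn1, -0.15 to 0.84 for Myl9 and -0.36 to 0.32 for Lmod1. The median of the 10 ran from -0.39 to 0.27 in those fits. The log2 ratio of Myh11 to Myh10 ran from -0.65 to 0.058, that of Actg2 to Acta2 from -0.73 to -0.005 and that of Des to Vim from -0.68 to -0.043. Over all genes the count of 135 was 247 without a low-count filter, 1296 with DESeq2, 243 with the sample code as a term, 25 in the AG181017 libraries alone and 0 to 106 with 1 library left out, with 0 without control 1, 3 without NEC 3 and 25 without control 3, where 0 contractile genes called says little; the cause was not tested. With the replicate number as a block it was 54, and 0 of 10 contractile genes were called; same-numbered libraries had correlations of -0.141, 0.269 and -0.007 in their deviations from the group means, so the numbers were not taken as pairs, and control 3 was closest to NEC 1 (0.358). Library totals were high, so counting error is small for these genes; with 3 samples a group, precision was set by the spread between libraries, up to 8.42-fold within a group.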

Other observations

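Of the genes of contraction signalling and ion handling, 6 were singled out after their values were seen. Chrm2, the most abundant muscarinic receptor gene of gut muscle, had 14.6, 13.4 and 4.97 CPM in control 1 to 3 and 8.49, 21.9 and 6.95 CPM in NEC 1 to 3 (log2 fold change 0.18, SE 0.56). Kcnmb1, a subunit of the calcium-activated potassium channel, had 3.20, 2.59 and 1.32 CPM in control and 0.891, 4.13 and 1.21 CPM in NEC. Pln, phospholamban, which restrains the calcium pump of the sarcoplasmic reticulum, had 6.62, 10.1 and 3.09 CPM in control and 1.24, 8.67 and 2.73 CPM in NEC. Gucy1b1, a subunit of the nitric oxide receptor, had 18.2, 16.6 and 11.7 CPM in control and 9.08, 40.1 and 14.5 CPM in NEC, where NEC 2 stood highest. The kinase gene Rock2 and the GTPase gene Rhoa, which most cells express, varied less, with Rhoa between 260 and 306 CPM in all 6 libraries. None of these 6 genes passed edgeR's test, DESeq2 or limma-voom after adjustment or had an unadjusted p below 0.05, and the smallest adjusted p by edgeR was 0.735 for Pln.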
